A study of Mus musculus with 6 samples.

Results

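The 35 genes described here encode the machinery that takes up glucose, breaks it down to lactate or feeds it into mitochondria, and senses oxygen. They were listed by name, with earlier results of these data known, so that their shares beside all genes are descriptions. They comprise glucose and lactate transporters, glycolytic enzymes, pyruvate dehydrogenase with its kinases, and Hif1a with its hydroxylases and targets. All 35 were found among the 56748 Ensembl IDs of the count files, and all 35 were among the 21849 named genes with at least 50 counts that entered the test. RNA-seq was performed on polyA RNA of unstimulated bone marrow-derived dendritic cells (BMDCs), with 3 libraries from WT mice and 3 from global Nfkb2-/- mice. Nfkb2 encodes p100, the precursor of the NF-κB subunit p52, which acts with RelB in the noncanonical NF-κB pathway. In both genotypes, marrow cells grew for 5 days with 20 ng/ml GM-CSF and for another 4 days with 20 ng/ml GM-CSF and 10 ng/ml IL-4. The knockout was present in every cell of the mice, not in DCs alone. Strain, age and sex of the mice behind these libraries were not given in the sources used here, although the study names C57/BL6 for WT BMDCs in a flow cytometry panel.

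Glycolysis splits glucose into pyruvate, and gives ATP without oxygen. Hexokinase traps glucose in the cell, phosphofructokinase-1 commits it to the pathway, and pyruvate kinase closes it. Pyruvate is then reduced to lactate and exported, or oxidised by pyruvate dehydrogenase. The transcription factor HIF-1α, encoded by Hif1a, activates many of these genes. In oxygen, prolyl hydroxylases mark HIF-1α for destruction through the von Hippel-Lindau protein. Dendritic cells are known to increase glycolysis early after activation by microbial products.

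Summed per kilobase of exonic length, the 35 mRNAs were 1.30 times as high in Nfkb2-/- as in WT BMDCs, and the sums of the 3 libraries of each genotype did not overlap. Of the 35 members, 27 had a higher fitted level in Nfkb2-/- and 8 a lower one. Only Eno2, which encodes the neuronal enolase isoenzyme, passed the test (edgeR, adjusted p under 0.05 and fold change over 1.2), and it fell 4.83-fold. That is 2.86% of the members, against 1.14% of all genes tested. An unadjusted p under 0.05 was found for 20 members (16 higher, 4 lower), or 57.1% of them, against 17.1% of all genes. In 19 members (54.3%) the genotypes did not overlap, as in 24.7% of all genes. In 15 of these the lowest Nfkb2-/- library exceeded the highest WT library (42.9% of members, 12.7% of all genes), and in 4 the order was the opposite (11.4%, against 12% of all genes). The median log2 fold change (Nfkb2-/- over WT) was 0.42 over the members and 0.08 over all genes. All genes include many at levels below any member. Of the 11384 genes at or above the lowest mean of a member, 2807 had an unadjusted p under 0.05. In 3739 of them the genotypes did not overlap (1757 higher, 1982 lower), and 70 passed as higher and 136 as lower. Their median log2 fold change was -0.02. DESeq2 on the same counts called 12 members, or 34.3%, against 8.65% of all genes. These were Aldoa, Egln3, Ldha, Pfkp, Pgk1, Pkm, Slc2a1, Slc2a3 and Slc2a6, all higher, and Eno2, Pfkfb3 and Vegfa, all lower. The number of members called hence depended on the tool, and 11 of the 12 did not pass in edgeR.

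**Figure D1:**
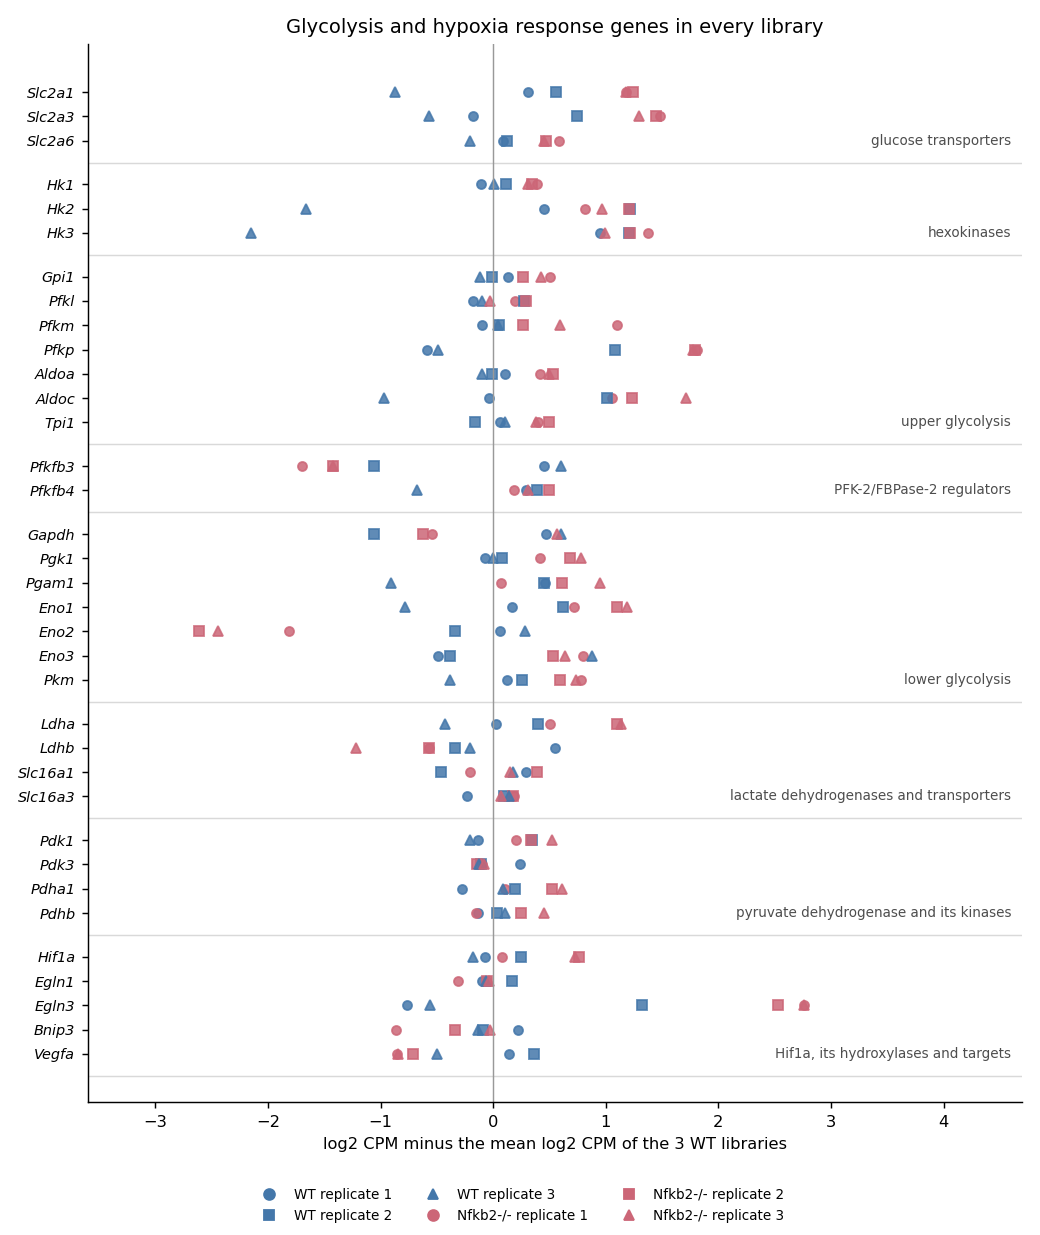
Level of each of the 35 genes in each library, as log2 CPM (counts per 1000000, TMM-normalized) minus the mean log2 CPM of the 3 WT libraries, with 1 row per gene, grouped by role. Most Nfkb2-/- libraries lie to the right of the WT libraries from the glucose transporters to Ldha, whereas Pfkfb3, Eno2, Ldhb and Vegfa lie to the left.

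The libraries held 29863927 to 55623068 counts. The totals of WT replicate 2 (31622131) and Nfkb2-/- replicate 2 (31622146) were nearly equal, for a reason not given in the sources used here, while their gene values differed. The lowest count of any member in a library was 31. Nfkb2-/- replicate 1, the library with the fewest counts, had a count for 47952 IDs, against 27692 to 33841 IDs in the other libraries. It also held the largest part of counts on IDs without a name (1.75%). It was the highest of all 6 libraries in 6818 of 21849 genes tested and in 9 of the 35 members. The effect of this on the results was not tested. As a check of the labels, Nfkb2 mRNA stood at 215, 154 and 355 CPM in WT and 44.8, 32.3 and 32.6 CPM in Nfkb2-/- libraries (log2 fold change -2.72 ± 0.33 (SE), adjusted p = 0.0307). Here and below values are given in the order of replicates 1, 2 and 3, and levels in TMM-normalized counts per 1000000 (CPM). The summed CPM of 13 dendritic cell markers was 6947 to 12583 in WT and 9152 to 10104 in Nfkb2-/- libraries, and none of them was at 0. Among them Itgax, encoding CD11c, rose from 160, 277 and 123 to 745, 769 and 716 CPM (adjusted p = 0.0414), and Zbtb46 was lower without overlap (-0.54 ± 0.18, adjusted p = 0.192). Of 8 tested mast cell and basophil markers, 5 had a lower and 3 a higher fitted level. Only Cpa3 passed, and it fell (-1.84 ± 0.28, adjusted p = 0.0413). Gata2 (1.47 ± 0.38, adjusted p = 0.119) and Hdc (1.72 ± 0.81, adjusted p = 0.341) were higher without overlap, and 3 markers were lower without overlap. The 11 markers of this list summed to 47.6 to 57.8 CPM in WT and 52.5 to 58.3 CPM in Nfkb2-/-. Of 10 tested granulocyte markers, 8 had a lower fitted level and none passed. WT replicate 3 stood apart as well. Its 12 macrophage markers summed to 194 CPM, against 1107 and 1291 CPM in the other WT libraries and 737 to 953 CPM in Nfkb2-/-. It had the lowest WT value in 18 of the 35 members (51.4%, against 39.6% of all genes). It had the lowest value of all 6 libraries in 15 (42.9%, against 25.0% of all genes). Markers of cycling cells also moved with the genotype. The 8 markers summed to 156, 418 and 93.6 CPM in WT and to 528, 746 and 834 CPM in Nfkb2-/-. All 8 were higher without overlap, and Plk1 and Mcm3 passed the test. Of all genes tested, 12.7% were higher and 12% lower without overlap, and 1.14% passed. Among WT libraries the cycling markers were highest in replicate 2, which was also the highest WT library in 21 members (60%, against 37.05% of all genes). The part of these markers in the results was not tested. In bulk RNA, fewer cells of a type and less RNA per cell cannot be told apart.

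Leaving out single libraries moved the number of calls. Without WT replicate 2, edgeR called 6 members (17.1%), namely Aldoc, Egln3, Pfkp and Slc2a3, higher, and Eno2 and Pfkfb3, lower, against 5.87% of all genes. Without WT replicate 3 it called 3 (8.57%), namely Eno3, higher, and Eno2 and Vegfa, lower, against 1.27% of all genes. Without WT replicate 1, or without any 1 Nfkb2-/- library, it called no member and no gene at all, while 12 to 17 members had an unadjusted p under 0.05, which need not be the same members. The median log2 fold change over the members was 0.34 without WT replicate 3.

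Reference promoters show where members carry the core letters that HIF-1 recognises. The windows are those of the 4 members with the smallest p (Eno2, Egln3, Pgk1 and Pfkfb3) and of Pfkp, the glycolytic enzyme with the highest log2 fold change, and were chosen after these values were seen. The windows below span 250 bases before to 50 bases after an annotated start, as given by RefSeq for GRCm38.p6, and are written 5′ to 3′ on the strand of the gene. Capitals mark ACGTG or GCGTG, read on either strand.
Egln3 promoter, minus strand, chr12:54203825-54204124: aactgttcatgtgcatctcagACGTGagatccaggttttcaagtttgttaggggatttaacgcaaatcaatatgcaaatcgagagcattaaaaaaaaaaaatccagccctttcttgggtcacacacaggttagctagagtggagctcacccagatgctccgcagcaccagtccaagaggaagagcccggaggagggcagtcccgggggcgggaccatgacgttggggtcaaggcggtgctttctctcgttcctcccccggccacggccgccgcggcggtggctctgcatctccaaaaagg
Pfkp promoter, minus strand, chr13:6648722-6649021: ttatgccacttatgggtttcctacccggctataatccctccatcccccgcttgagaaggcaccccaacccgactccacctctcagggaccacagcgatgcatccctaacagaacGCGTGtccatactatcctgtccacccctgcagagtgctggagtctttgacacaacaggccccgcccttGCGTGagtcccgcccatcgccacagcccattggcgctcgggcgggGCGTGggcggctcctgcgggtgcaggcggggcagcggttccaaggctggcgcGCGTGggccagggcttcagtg
Pgk1 promoter, plus strand, chrX:106186850-106187149: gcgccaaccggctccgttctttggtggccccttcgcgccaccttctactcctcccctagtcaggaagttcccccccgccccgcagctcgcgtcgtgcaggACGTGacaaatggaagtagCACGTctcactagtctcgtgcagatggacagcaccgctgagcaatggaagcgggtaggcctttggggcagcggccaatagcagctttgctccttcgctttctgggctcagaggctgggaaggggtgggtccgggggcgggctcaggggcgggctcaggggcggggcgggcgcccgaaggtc
Eno2 promoter, minus strand, chr6:124769624-124769923: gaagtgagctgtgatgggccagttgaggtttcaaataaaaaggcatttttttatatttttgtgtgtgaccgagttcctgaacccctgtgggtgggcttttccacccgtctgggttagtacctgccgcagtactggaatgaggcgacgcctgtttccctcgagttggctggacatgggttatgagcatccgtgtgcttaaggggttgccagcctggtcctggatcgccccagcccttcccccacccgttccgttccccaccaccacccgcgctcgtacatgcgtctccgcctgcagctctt
Pfkfb3 promoter of the upstream start, minus strand, chr2:11553880-11554179: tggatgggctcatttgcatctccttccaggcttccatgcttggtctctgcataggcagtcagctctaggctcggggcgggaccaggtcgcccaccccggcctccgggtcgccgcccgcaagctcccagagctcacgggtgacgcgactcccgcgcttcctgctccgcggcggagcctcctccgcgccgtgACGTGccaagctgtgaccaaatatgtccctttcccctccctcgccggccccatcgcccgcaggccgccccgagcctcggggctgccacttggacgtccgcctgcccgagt
Pfkfb3 promoter of the downstream start, minus strand, chr2:11502041-11502340: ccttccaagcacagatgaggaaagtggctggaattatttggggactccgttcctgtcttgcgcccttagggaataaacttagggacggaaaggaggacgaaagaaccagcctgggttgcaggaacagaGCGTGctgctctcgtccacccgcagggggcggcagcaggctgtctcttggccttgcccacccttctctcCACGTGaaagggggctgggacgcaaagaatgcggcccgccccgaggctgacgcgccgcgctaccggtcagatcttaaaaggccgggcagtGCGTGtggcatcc
The Egln3 and upstream Pfkfb3 windows each held 1 core, the downstream Pfkfb3 window held 4 (2 of them the strands of 1 palindrome), Pgk1 held 2 and Pfkp 4, those of Pfkp all of the GCGTG form, whereas the Eno2 window held none. RefSeq promoters were found for 34 of the 35 members (48 windows), and Slc2a3 had no entry. Some windows of Eno1, of Aldoa and of Pfkm overlap in part, so that the same bases were counted more than once. Hif1a targets were among the members by choice of the list. ACGTG stood in 25 of the 48 windows (52.1%) and in 19.6% of all 32851 promoters of the table, and GCGTG in 58.3% against 32.4%. Either core stood in 81.3% of member windows and in 43.8% of all promoters. An ACGTG core preceded by C is a palindrome and was counted on both strands. Member windows were also richer in G and C (median 61.7%, against 52.7%), and held a median of 20 CG pairs against 7. Both cores contain a CG pair, and the part of this in the shares of windows with a core was not tested. Among members with a window, a core stood in 12 of the 14 that were higher without overlap, in 3 of the 4 that were lower and in all 16 that overlapped. The κB consensus was matched in 1 of the 48 windows (2.08%), at Vegfa, and in 4.51% of all promoters. These matches describe letters in short windows and do not show binding.

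**Figure D2:**
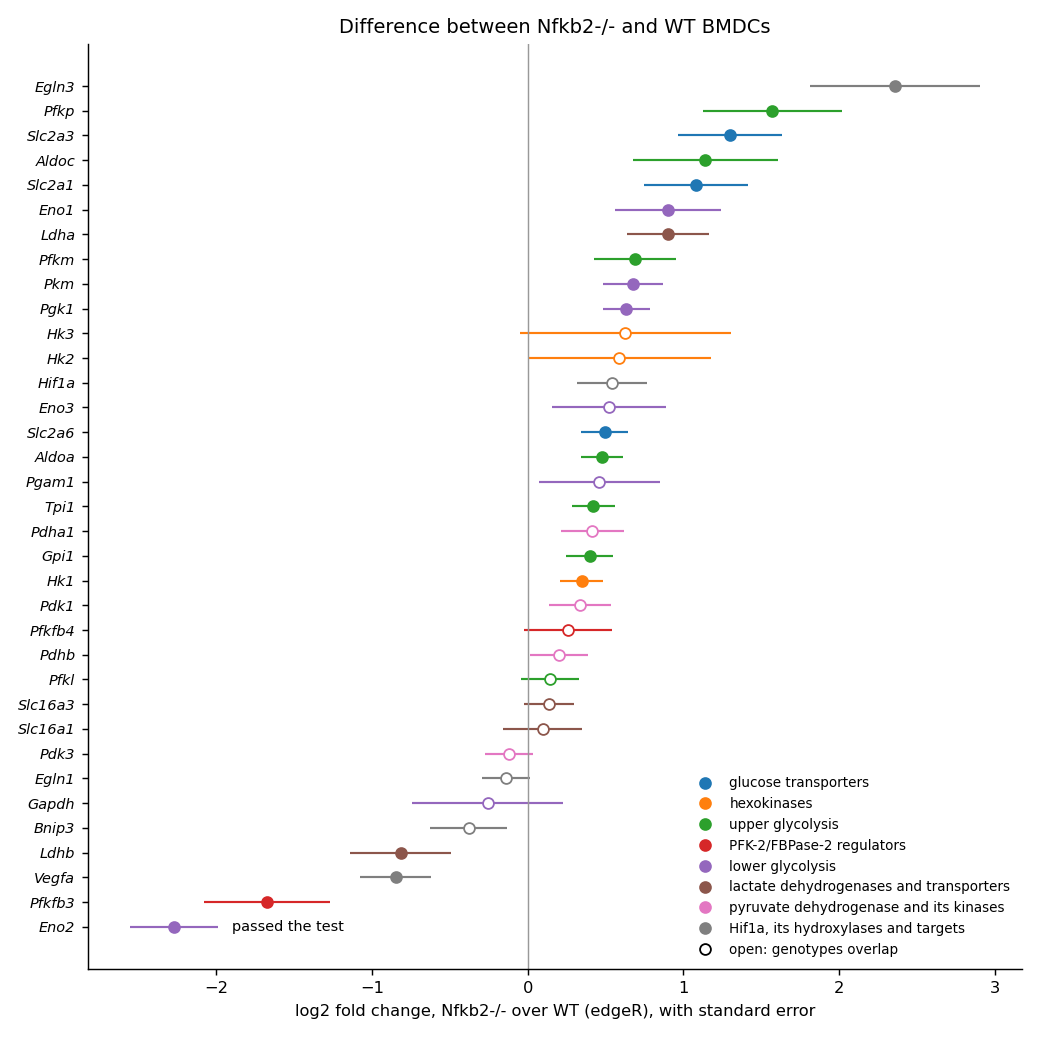
Log2 fold change of the 35 genes (Nfkb2-/- over WT, edgeR) with its standard error, ordered by size and coloured by role; filled points are genes whose 3 WT and 3 Nfkb2-/- libraries did not overlap. The values run from -2.27 for Eno2, the only gene that passed the test, to 2.36 for Egln3.

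All 3 glucose transporters stood higher in every Nfkb2-/- library than in any WT library, and none passed the test. Slc2a1, which encodes the widespread transporter GLUT1, measured 33.2, 39.2 and 14.6 CPM in WT and 60.6, 63.3 and 60.6 CPM in Nfkb2-/- (log2 fold change 1.08 ± 0.33, adjusted p = 0.165). Slc2a3, encoding the high-affinity GLUT3, was at 4.15, 7.88 and 3.17 CPM in WT and 13.1, 12.8 and 11.5 CPM in Nfkb2-/- (1.30 ± 0.34, adjusted p = 0.117). For Slc2a6, encoding the lysosomal GLUT6, the values were 30.5, 31.2 and 24.8 CPM in WT and 43.0, 39.6 and 39.3 CPM in Nfkb2-/- (0.49 ± 0.15, adjusted p = 0.163). The WT libraries of Slc2a1 and Slc2a3 spread over 2.68-fold and 2.49-fold, and their Nfkb2-/- libraries over 1.04-fold and 1.14-fold. Per kilobase of exonic length, Slc2a6 and Slc2a1 did not differ beyond their spread in WT (8.98 ± 1.10 and 8.27 ± 3.66 CPM per kilobase, SD, n = 3). In Nfkb2-/- Slc2a1 stood higher on this scale (17.5 ± 0.44 against 12.7 ± 0.64). That difference depends on the length used. The exons span 3506 bases for Slc2a1 and 3211 for Slc2a6, and the longest coding transcripts 3260 and 2138 bases. The summed level of the 3 genes was 17.9 ± 5.02 CPM per kilobase in WT and 31.9 ± 0.72 in Nfkb2-/-, and these sums did not overlap.

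The hexokinases, which phosphorylate glucose, differed in how far their WT libraries agreed. Hk1, the housekeeping isoenzyme, was at 24.9, 29.0 and 26.9 CPM in WT and 35.1, 34.2 and 33.4 CPM in Nfkb2-/-, without overlap (0.35 ± 0.14, adjusted p = 0.258). Hk2, the inducible isoenzyme and a HIF-1 target, had the highest mean of the 3 per kilobase of exonic length. In WT its spread did not separate it from the others (4.58 ± 3.44 CPM per kilobase, against 3.22 ± 2.40 for Hk3 and 3.16 ± 0.24 for Hk1). That order depends on the length used, which for Hk1 was 8532 bases against 4278 in its longest coding transcript (Hk2 5969 and 5513). Hk2 measured 28.0, 47.5 and 6.47 CPM in WT and 36.0, 47.4 and 40.1 CPM in Nfkb2-/- (0.59 ± 0.59, adjusted p = 0.649). Hk3, found mainly in myeloid cells, was at 15.4, 18.4 and 1.79 CPM in WT and at 15.8 to 20.7 CPM in Nfkb2-/- (0.63 ± 0.68). For Hk2 and Hk3 the genotypes overlapped, and WT replicate 3, the library with few macrophage markers, was far below the other WT libraries. Without that library the log2 fold changes were 0.13 for Hk2 and 0.12 for Hk3, and without WT replicate 2 they were 1.25 and 1.08.

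From glucose 6-phosphate to the triose phosphates, all 7 members had a higher fitted level in Nfkb2-/-, and 6 of them did not overlap. Pfkp, the platelet-type phosphofructokinase-1, had the largest difference of the 7. It measured 84.3, 268 and 90.6 CPM in WT and 445, 438 and 434 CPM in Nfkb2-/- (1.57 ± 0.44, adjusted p = 0.139). WT replicate 2 lay between the other WT libraries and the Nfkb2-/- libraries, which spread over only 1.02-fold. Without it the log2 fold change was 2.33, and without any other library 1.29 to 1.58. The other forms of the enzyme were far lower. Pfkm, the muscle form, was at 2.78, 3.08 and 3.06 CPM in WT and 6.35, 3.56 and 4.47 CPM in Nfkb2-/- (0.69 ± 0.26, adjusted p = 0.243), and Pfkl, the liver form, had overlapping values of 13.8 to 18.9 CPM and 15.3 to 19.2 CPM.

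Aldoa, the main aldolase, was, per kilobase, the most abundant member of the upper pathway and, in Nfkb2-/-, of all 35. Its values per library were 185, 171 and 161 CPM in WT and 230, 249 and 242 CPM in Nfkb2-/- (0.48 ± 0.14, adjusted p = 0.139). Its less abundant isoenzyme Aldoc was at 6.88, 14.3 and 3.61 CPM in WT and 14.7, 16.7 and 23.2 CPM in Nfkb2-/- (1.14 ± 0.47, adjusted p = 0.271). The lowest Nfkb2-/- library of Aldoc hence only just cleared the highest WT library, and without that library, replicate 2, the log2 fold change was 1.79. Gpi1, glucose 6-phosphate isomerase, was at 290, 263 and 245 CPM in WT and 377, 319 and 356 CPM in Nfkb2-/- (0.40 ± 0.15, adjusted p = 0.235). Tpi1, triose phosphate isomerase, was at 54.9, 47.1 and 56.6 CPM in WT and 69.5, 74.3 and 68.7 CPM in Nfkb2-/- (0.42 ± 0.14, adjusted p = 0.187). Gpi1, Aldoa and Tpi1 thus differed by 1.32-fold to 1.39-fold, and the WT libraries of Aldoa and Gpi1 spread over 1.15-fold and 1.19-fold. Summed over the 7 genes, the level was 136 ± 10.4 CPM per kilobase in WT and 205 ± 1.37 in Nfkb2-/-, without overlap.

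**Figure D3:**
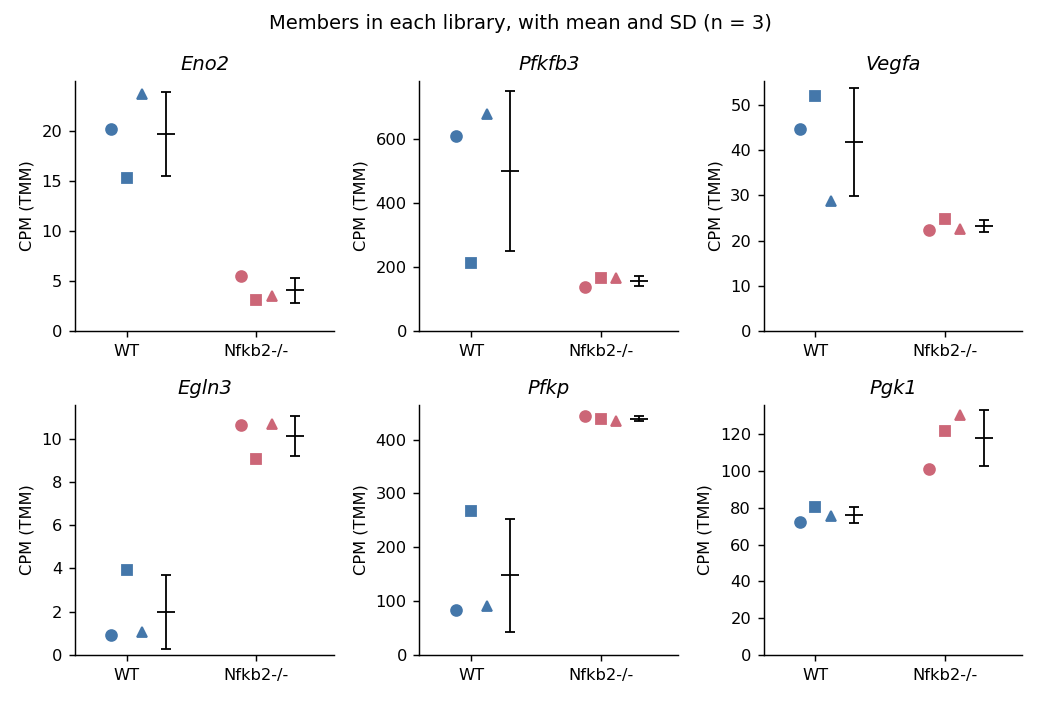
CPM (TMM-normalized, linear axes from 0) of 6 genes in each library (circle, square and triangle are replicates 1, 2 and 3; blue WT, red Nfkb2-/-), with the mean and SD of each genotype beside the points. Eno2, Pfkfb3 and Vegfa are lower and Egln3, Pfkp and Pgk1 higher in all 3 Nfkb2-/- libraries, and WT replicate 2 is the WT library nearest to Nfkb2-/- for Eno2, Pfkfb3, Egln3, Pfkp and Pgk1.

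Pfkfb3 differed in the opposite direction from most of the pathway. It encodes the enzyme that makes fructose 2,6-bisphosphate, the strongest activator of phosphofructokinase-1. Its level was 610, 214 and 677 CPM in WT and 137, 166 and 166 CPM in Nfkb2-/- (log2 fold change -1.68 ± 0.40, adjusted p = 0.101), so that every Nfkb2-/- library was lower, by 3.19-fold between the means. WT replicate 2 was again the library nearest to Nfkb2-/-. In WT, Pfkfb3 was the most abundant of the 35 per kilobase (66.2 ± 33.1 CPM per kilobase), a rank that its spread did not separate from Aldoa (59.2 ± 4.13), whereas in Nfkb2-/- it ranked 10th (20.7 ± 2.22). The log2 fold change lay between -2.04 and -1.39 under all alternatives tried, and DESeq2 called it. Pfkfb4, a second enzyme of the family, had overlapping values of 9.02 to 18.8 CPM in WT and 16.3 to 20.2 CPM in Nfkb2-/-.

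Of the 7 members that act between glyceraldehyde 3-phosphate and pyruvate, where ATP is gained, 3 were higher in Nfkb2-/- without overlap. Pgk1, phosphoglycerate kinase, had the tightest WT libraries of these. It was at 72.0, 80.3 and 75.6 CPM in WT and 101, 122 and 131 CPM in Nfkb2-/- (0.63 ± 0.15, adjusted p = 0.0978). Pkm, pyruvate kinase, was at 146, 161 and 103 CPM in WT and 230, 203 and 223 CPM in Nfkb2-/- (0.68 ± 0.19, adjusted p = 0.141). Eno1, the ubiquitous enolase, measured 161, 220 and 83.1 CPM in WT and 235, 306 and 327 CPM in Nfkb2-/- (0.90 ± 0.34, adjusted p = 0.236). The lowest Nfkb2-/- library of Eno1 exceeded the highest WT library by little. Pgam1 (13.2 to 34.2 CPM in WT, 26.1 to 48.0 CPM in Nfkb2-/-) and the muscle enolase Eno3 (9.61 to 24.7 and 19.5 to 23.5 CPM) overlapped between the genotypes. Without WT replicate 3, in which it was highest, Eno3 did pass the test (log2 fold change 1.10).

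Eno2 fell while Eno1 stood higher, although both encode enolase. Eno2 (GENCODE M21 position chr6:124760053-124769673, minus strand, GRCm38) measured 20.2, 15.3 and 23.6 CPM in WT and 5.52, 3.16 and 3.55 CPM in Nfkb2-/- (log2 fold change -2.27 ± 0.28, adjusted p = 0.0307). The lowest WT library was well above the highest Nfkb2-/- library. Per kilobase its level was 4.19 ± 0.89 CPM in WT and 0.87 ± 0.27 in Nfkb2-/-. The fitted log2 fold change stayed between -2.56 and -2.12 under every alternative. The call was lost without WT replicate 1, without any 1 of the Nfkb2-/- libraries and with the replicate number as a block, settings under which no gene of the whole table passed.

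Gapdh, often used as a loading control, was listed at only 16.2, 5.63 and 17.8 CPM in WT and 8.06, 7.65 and 17.4 CPM in Nfkb2-/- (-0.26 ± 0.49). Per kilobase its means of 3.20 and 2.67 CPM were far below those of Pgk1 or Aldoa. Of the stretches of 50 bases in its transcript, 82.5% also occur in GENCODE transcripts of other genes, 222 of them. Such stretches made up over 50% of the transcript in 4 members, namely Gapdh, Eno1 (72.2%), Pgk1 (68.0%) and Bnip3 (62.5%). How the authors counted reads that fit several genes is not given in the sources used here, so that the levels of these 4 genes are uncertain. No such stretch was found in 14 members, among them Slc2a3, Hk2, Aldoc and Egln3, and in Eno2 they made up 0.25%.

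Most lactate dehydrogenase mRNA was Ldha, which encodes the subunit that favours pyruvate reduction. Ldha was at 101, 131 and 73.5 CPM in WT and 140, 212 and 218 CPM in Nfkb2-/- (0.90 ± 0.26, adjusted p = 0.149), all 3 Nfkb2-/- libraries being higher. Ldhb, the heart-type subunit, went the other way at a far lower level. It was at 6.93, 3.75 and 4.10 CPM in WT and 3.19, 3.20 and 2.04 CPM in Nfkb2-/- (-0.82 ± 0.32, adjusted p = 0.258), also without overlap. The exporters overlapped between the genotypes. Slc16a3, encoding the lactate exporter MCT4, was at 18.1 to 23.4 CPM in WT and 22.4 to 24.1 CPM in Nfkb2-/- (0.14 ± 0.16), and Slc16a1, encoding MCT1, at 9.72 to 16.4 and 11.6 to 17.6 CPM (0.10 ± 0.25).

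Entry of pyruvate into mitochondria showed no member with an unadjusted p under 0.05. Pdk3, a kinase that inactivates pyruvate dehydrogenase, was the most abundant of this role per kilobase of exonic length, a rank that depends on the length used. Its values were 49.96, 39.3 and 38.9 CPM in WT and 39.5, 38.5 and 40.0 CPM in Nfkb2-/- (-0.12 ± 0.15, adjusted p = 0.730). Pdk1, the HIF-1-induced kinase, was at 14.5 to 21.2 CPM in WT and 19.2 to 24.1 CPM in Nfkb2-/- (0.34 ± 0.20). The subunits of the enzyme itself, Pdha1 and Pdhb, had log2 fold changes of 0.42 ± 0.20 and 0.20 ± 0.19. The summed level of the 4 genes was 35.9 ± 0.64 CPM per kilobase in WT and 38.9 ± 4.33 in Nfkb2-/-, and the sums overlapped.

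The oxygen-sensing genes were split. Hif1a was at 234, 292 and 217 CPM in WT and 259, 415 and 407 CPM in Nfkb2-/- (0.54 ± 0.23, adjusted p = 0.285). Its Nfkb2-/- replicate 1 lay within the WT range, so that the genotypes overlapped. Egln3, a prolyl hydroxylase that is itself a HIF-1 target, had the highest log2 fold change of the 35. It was at 0.93, 3.94 and 1.07 CPM in WT and 10.6, 9.06 and 10.7 CPM in Nfkb2-/- (2.36 ± 0.55, adjusted p = 0.0934), a 5.12-fold ratio of the means. Without WT replicate 2 the log2 fold change was 3.35, and without any other library it lay between 2.01 and 2.40. Even the highest WT library, replicate 2, was below every Nfkb2-/- library. Egln1, the main oxygen sensor of the family, was at 44.9 to 54.2 CPM in WT and 38.7 to 46.8 CPM in Nfkb2-/- (-0.14 ± 0.15).

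Of the HIF-1 targets outside glycolysis, Vegfa, encoding vascular endothelial growth factor A, stood lower. It measured 44.5, 52.0 and 28.7 CPM in WT and 22.4, 24.7 and 22.5 CPM in Nfkb2-/- (-0.85 ± 0.23, adjusted p = 0.126), without overlap. Bnip3, a mitophagy receptor, was at 9.60 to 12.3 CPM in WT and 5.79 to 10.4 CPM in Nfkb2-/- (-0.38 ± 0.25), and overlapped. Vegfa and Egln3, both counted as HIF-1 targets, thus lay on opposite sides.

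**Figure D4:**
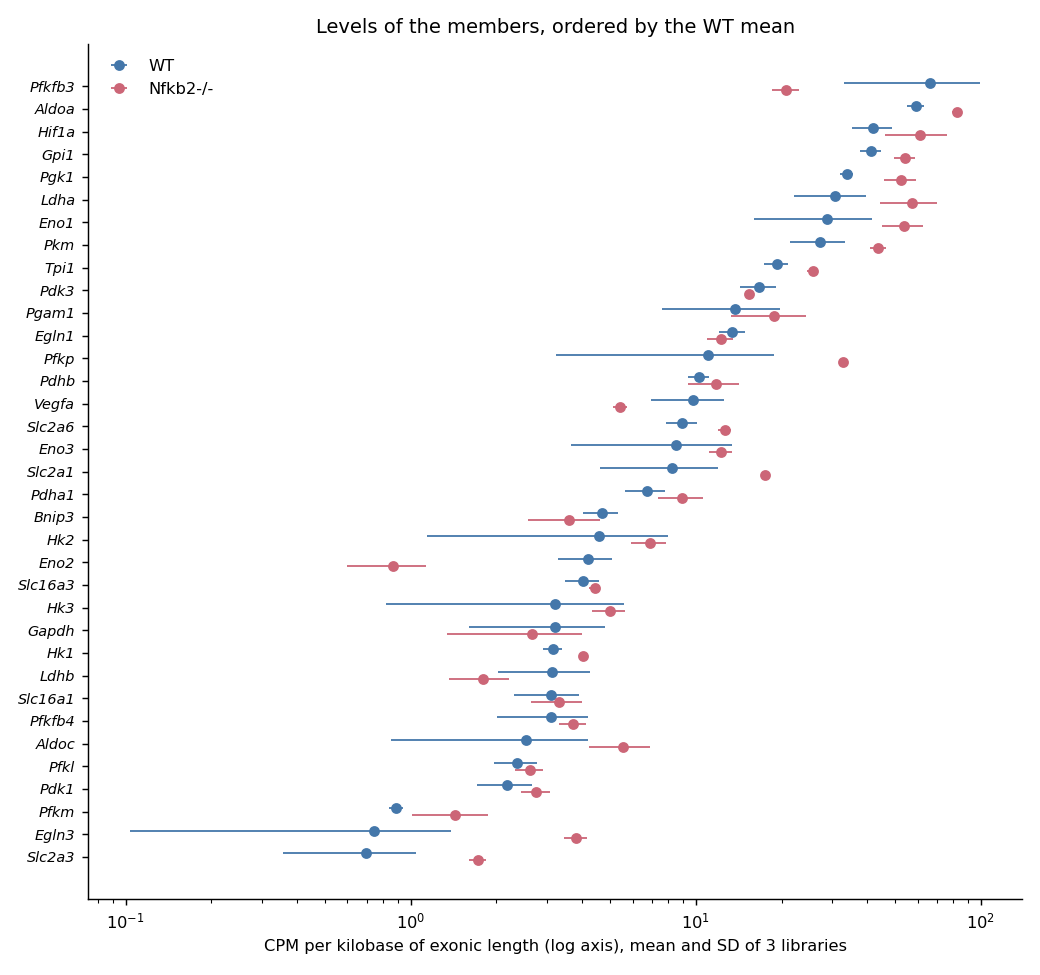
Mean level of each gene in CPM per kilobase of exonic length on a log axis, with the SD of 3 libraries, ordered by the WT mean (blue WT, red Nfkb2-/-; lower bars are cut where the SD nears the mean). Aldoa, Hif1a, Gpi1, Pgk1, Ldha, Eno1 and Pkm are among the 8 highest in both genotypes, and Pfkfb3 moves from rank 1 to rank 10.

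Per kilobase, the levels in WT ran from 66.2 CPM for Pfkfb3 to 0.70 CPM for Slc2a3. After Pfkfb3 and Aldoa came Hif1a (42.0 ± 6.71), Gpi1 (41.2 ± 3.54), Pgk1 (33.9 ± 1.86), Ldha (30.7 ± 8.66), Eno1 (28.8 ± 12.8) and Pkm (27.3 ± 5.97). Hif1a and Gpi1 did not differ beyond their spread, nor did Pgk1, Ldha, Eno1 and Pkm. The order in both genotypes depends on the length used. For Gpi1 the exonic length was 6452 bases and the longest coding transcript 2884, and for Eno1 5379 and 2027. In Nfkb2-/- the order was Aldoa (82.6 ± 3.32), Hif1a (61.1 ± 14.9), Ldha (57.4 ± 13.0), Gpi1 (54.4 ± 4.58), Eno1 (53.9 ± 8.997), Pgk1 (52.5 ± 6.72) and Pkm (43.7 ± 2.82), and from Hif1a to Pgk1 the neighbours lay within their spread. The sum over all 35 members was 502 ± 34.6 CPM per kilobase in WT and 654 ± 55.1 in Nfkb2-/-, 1.30 times as high, without overlap. The members were also tighter among the Nfkb2-/- libraries. The median SD of log2 CPM was 0.34 in WT and 0.16 in Nfkb2-/-, and the WT SD was the larger in 27 of 35 members. Over all genes these medians were 0.34 and 0.31, and the WT SD was the larger in 10753 of 21849. Over the 11384 genes at or above the lowest mean of a member they were 0.24 and 0.19, with the WT SD larger in 6784.

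The make-up of enzyme families was then compared, as the share of 1 form in the summed CPM per kilobase of the family members listed here. The size of a share, and of its difference, depends on the exonic lengths used. Both also depend on the forms counted, and forms outside the members were left out. Among these was Egln2, at 6.37 CPM per kilobase in WT and 5.09 in Nfkb2-/-, against 0.74 and 3.80 for Egln3. Pdk2 was also left out, at 6.82 and 4.95, against 2.18 and 2.76 for Pdk1. Shares with such forms counted were not calculated. Pfkp made up 68.4%, 84.2% and 68.5% of phosphofructokinase-1 mRNA in WT and 87.9%, 89.3% and 89.9% in Nfkb2-/-. Ldha made up 90.4% ± 3.55 of Ldha plus Ldhb in WT and 96.8% ± 1.33 in Nfkb2-/-. Slc2a1 made up 44.4% ± 9.21 of the 3 glucose transporters in WT and 55.0% ± 1.55 in Nfkb2-/-. In the other direction, Pfkfb3 went from 93.9% ± 5.23 to 84.8% ± 0.85 of Pfkfb3 plus Pfkfb4. Egln1 went from 95.1% ± 3.50 to 76.2% ± 3.08 of Egln1 plus Egln3. In these 5 families the genotypes did not overlap, with p = 0.1 by the two-sided exact permutation test, the smallest p that 3 libraries against 3 allow, and an adjusted p of 0.2 over the 10 families compared. Overlapping shares were found for Hk2 (37.1% and 43.3%), Eno1 (67.2% and 80.1%), Aldoa (96.0% and 93.7%), Pdk3 (88.3% and 84.8%) and Slc16a3 (56.8% and 57.4%), with exact p of 0.2 to 1.

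**Figure D5:**
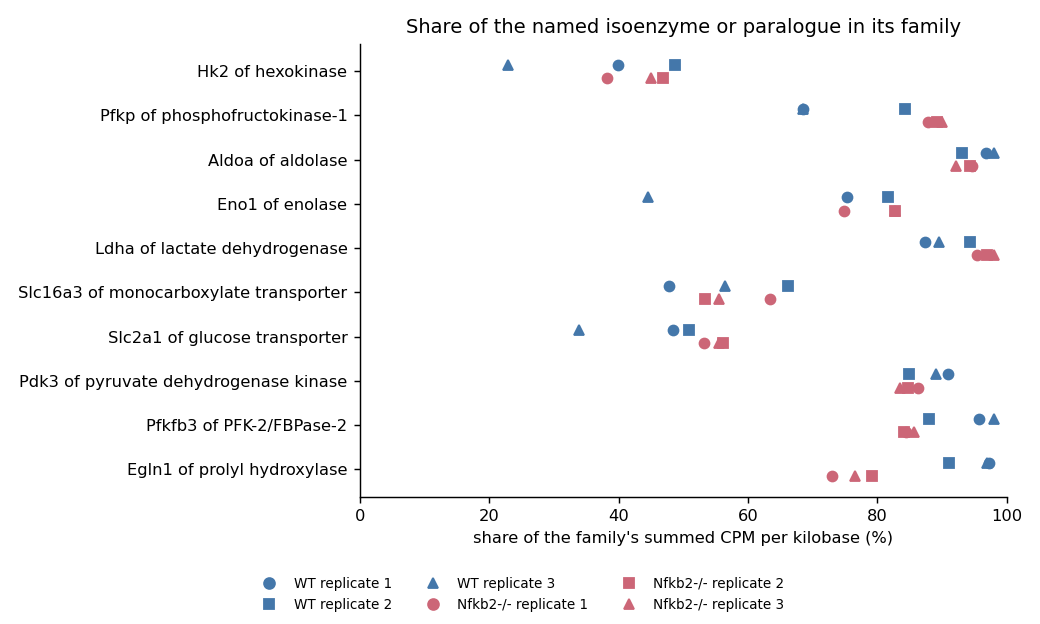
Share (%) of the named gene in the summed CPM per kilobase of those forms of its family that are among the members, 1 point per library, for 10 families (blue WT, red Nfkb2-/-; markers as replicates). Pfkp, Ldha and Slc2a1 take a larger and Pfkfb3 and Egln1 a smaller share in all 3 Nfkb2-/- libraries.

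Other genes of the pathway were examined in lists made up by known function, also with earlier results of these data known. Of 82 such genes, 81 were tested, with 51 higher and 30 lower in Nfkb2-/-, a median log2 fold change of 0.10, and 3 that passed the test. Of all genes tested 1.14% passed. In the pentose phosphate pathway, which branches off at glucose 6-phosphate, 6 of 8 genes had a higher fitted level and 1 passed. This was Tkt, transketolase, which rose from 165, 179 and 144 CPM in WT to 286, 290 and 298 CPM in Nfkb2-/- (0.84 ± 0.14, adjusted p = 0.0491). Of 25 other HIF target genes, 14 were higher, 11 lower, and 1 passed in each direction. Mif, encoding macrophage migration inhibitory factor, rose from 4.89, 5.48 and 3.51 CPM to 12.3, 10.8 and 12.01 CPM (1.34 ± 0.21, adjusted p = 0.0426). Mxi1, an antagonist of Myc, fell from 159, 112 and 196 CPM to 60.2, 61.9 and 52.5 CPM (-1.42 ± 0.22, adjusted p = 0.0420). Mif and Mxi1 thus lay on opposite sides, as Egln3 and Vegfa did. By direction alone, the division of the 25 genes was near that of all genes tested (12179 higher, 9670 lower). An unadjusted p under 0.05 was found for 9 of the 25 (4 higher, 5 lower), against 17.1% of all genes. In 8 of the 25 the genotypes did not overlap (5 higher, 3 lower), against 24.7% of all genes.

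None of 12 HIF pathway components passed. The smallest p was that of Vhl, the ubiquitin ligase subunit that recognises hydroxylated HIF-1α, at 203, 136 and 263 CPM in WT and 93.4, 113 and 111 CPM in Nfkb2-/- (-0.92 ± 0.25, adjusted p = 0.1248), followed by Hif1an (-0.29 ± 0.14, adjusted p = 0.350). Nor did any of 14 other glycolytic enzymes pass, 11 of which had a higher fitted level. Tigar, a phosphatase that opposes PFKFB enzymes, had the smallest p (0.59 ± 0.18, adjusted p = 0.164), before Adpgk, an ADP-dependent glucokinase (0.93 ± 0.29, adjusted p = 0.171). Among 11 genes of pyruvate entry, 8 were higher and none passed, with the smallest p for Pcx, pyruvate carboxylase (0.88 ± 0.24, adjusted p = 0.135), and Pdp2, a pyruvate dehydrogenase phosphatase (0.44 ± 0.19, adjusted p = 0.285). The 11 tested of 12 other sugar and monocarboxylate transporters were divided, 5 higher and 6 lower, and none had an unadjusted p under 0.05. Their smallest p were those of Slc2a4 (adjusted p = 0.407), which was at or below 0.24 CPM in 5 of 6 libraries, and Slc16a7 (-1.17 ± 0.74, adjusted p = 0.472).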

How the data were processed

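RNA-seq libraries of 3 WT and 3 Nfkb2-/- BMDC cultures were grouped and numbered from the sample labels. The study describes them as triplicates and as independent biological replicates. It does not tie each library to a mouse, so p-values measure the spread between these libraries. The authors deposited raw whole-number counts per Ensembl gene without normalization. Their processing notes name HISAT2 and GRCm38 (mm10). The counter, annotation, versions, use of strand and handling of reads that fit several genes are not given in the sources used here, and 2147 of 56748 IDs begin with ENSMUSG00002, a later Ensembl series than GENCODE M21 holds. A table joining the 6 libraries was not used.

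Gene names, positions and exonic lengths came from GENCODE M21 (GRCm38), which named 52073 IDs. Exonic length counts every base in any annotated exon of a gene. It exceeds the longest coding transcript to an unequal degree (Pfkp 13401 against 4145 bases, Slc16a1 4426 in both). Orders between genes per kilobase, and family shares, depend on this choice of length. IDs without a name held 1.01% to 1.75% of a library's counts and stayed out of library sizes and tests. A named gene was kept where its 6 libraries summed to 50 counts or more (21849 genes). The software was edgeR 4.0.16, limma 3.58.1 and DESeq2 1.42.0 in R 4.3.3, and matplotlib 3.10.9 for figures. Counts were TMM-normalized and the genotypes compared over all kept genes by edgeR's quasi-likelihood test (glmQLFit, glmQLFTest), with genotype as the one term. A call required a Benjamini-Hochberg adjusted p under 0.05 and a fold change over 1.2. SEs were derived from the F statistic, as the absolute log2 fold change over its square root. SDs on the log2 scale used CPM plus 0.125. Scripts were tested on simulated data whose dispersion was set below the common dispersion of these data (0.22). That test does not show how well calls are recovered here. Depth was 29863927 to 55623068 counts per library.

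The 35 members and the lists were chosen with earlier results of these data known. Values in every library are given for members called, members with an unadjusted p under 0.05, and the most abundant member of each role. Other members for which every library is given, and those singled out, were chosen after their values were seen. In the pathway lists, the genes called or the pair with the smallest p are named. Shared stretches were counted as 50-mers of the longest coding transcript, on both strands. Alternatives were DESeq2, limma voom, other scalings and filters, a replicate block, a looser threshold and leaving out each library. Same-numbered libraries had correlations of deviations of 0.22, 0.13 and 0.01. These do not settle whether the numbers pair the libraries, and the main test did not pair them. Protein sequences were not used here.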

Additional observations from a re-analysis of the deposited data

How the results depend on the processing

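Of the refitted log2 fold changes of members, 453 kept direction and side of the threshold, 27 passed newly, 5 no longer passed and 5 reversed. The number of calls was not steady. Over all genes 248 of 21849 were called. With the same genes tested, DESeq2 called 1890, limma voom 488, and an adjusted p under 0.1 gave 808. Other filters changed the genes tested. The calls were 397 of 19238 with edgeR's filterByExpr, 1625 of 46410 without a filter and 459 of 16284 with at least 10 counts in every library. Without single libraries 0 to 1248 were called. Where edgeR called 0 genes, 2325 to 4088 genes had an unadjusted p under 0.05. Of the members 1 was called, against 12 with DESeq2, 2 with limma voom (Egln3, Eno2), 8 without a filter, 2 with at least 10 counts in every library (Eno2, Pgk1), 3 at an adjusted p under 0.1 (Egln3, Eno2, Pgk1) and 0 to 6 without single libraries. With the replicate number as a block, edgeR called 0 genes and 0 members (3331 and 15 at an unadjusted p under 0.05). WT replicate 2 correlated best with Nfkb2-/- replicate 3 (0.15, against 0.13 with replicate 2). WT replicates 1 and 3 correlated best with the Nfkb2-/- library of their own number. These values do not settle whether the number pairs the libraries. Without a single library, the log2 fold change ran from -0.000216 to 0.44 for Pfkfb4, -0.75 to 0.0165 for Gapdh, -0.10 to 0.24 for Slc16a1 and -0.18 to 0.0083 for Pdk3, and the difference in share from -0.92 to 11.9 points for Hk2 and from -3.81 to 5.32 points for Slc16a3. With counts in place of counts per length, the share of Pdk3 differed by -6.70 points and that of Egln1 by -15.1 points. The cause of these shifts was not tested. Total counts in place of TMM moved the median log2 fold change of all genes from 0.08 to 0.17 and that of the members from 0.42 to 0.49. Levels near 1 CPM, such as Egln3 in WT replicates 1 and 3, rest on 39 and 31 counts.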
